A study of Mus musculus with 6 samples.

Results

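Cd34, Thy1, Dpp4, Pi16, Ly6a, Ly6c1, Pdpn and Fap encode surface proteins by which fibroblasts below the synovial lining are commonly sorted and named. These 8 genes were taken by name from the 31017 genes of each count matrix, and all 8 were detected. They were followed in 11336 fibroblasts and 1108 endothelial cells, out of 17898 cells of the mouse knee synovium. The data were 10x 3′ single-cell RNA-seq of live sorted synovial cells, with no gate on cell type, from healthy joints and from joints made arthritic by serum transfer from K/BxN mice. The question was which fibroblasts carry Thy1, Cd34 or both, and how these transcripts stood when Notch3, a Notch receptor, was deleted or blocked.

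The 6 libraries were healthy Notch3 knockout (Notch3-/-) and healthy wild type, arthritic Notch3 knockout and arthritic wild type, and arthritic anti-Notch3 (a monoclonal antibody) and arthritic isotype control. Each library pooled the synovium of 10 mice and each group had 1 library, so animals cannot be told apart and no value below has a replicate of its own. The knockout is given in the labels without a cell type. The genotype of the antibody-treated mice, the strain and the age are not given in the sources used here. In the pair of healthy libraries, the library tags carried by the barcodes lie far apart, while those of each arthritic pair are adjacent, so that in health the genotype cannot be told apart from whatever those tags track, which the labels do not name.

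The synovium has a thin lining of fibroblasts that secrete lubricin at the joint surface, and a sublining in which fibroblasts surround vessels and adipose and fibrous tissue. Thy1 (CD90), Ly6a (Sca-1) and Ly6c1 are small glycoproteins held in the membrane by a glycolipid anchor. Cd34 and Pdpn (podoplanin) are sialomucins, best known from endothelial and haematopoietic progenitor cells and from lymphatic vessels. Dpp4 (CD26) and Fap (fibroblast activation protein) are related membrane serine peptidases, and Pi16 belongs to the CAP family. In many mouse tissues Pi16 and Dpp4 are used together to mark adventitial fibroblasts regarded as progenitor-like. THY1 marks sublining and FAP activated fibroblasts in human synovium.

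All 8 genes are protein coding. In GENCODE vM21 on mm10 (GRCm38), Cd34 spans chr1:194938819-194961279 on the plus strand, Thy1 chr9:44043384-44048579 on the plus strand and Pi16 chr17:29317680-29330593 on the plus strand. Ly6a (chr15:74994877-74998031) and Ly6c1 (chr15:75044018-75048830) lie near each other on the minus strand, and Pdpn lies at chr4:143267431-143299564 on the minus strand. Dpp4 (chr2:62330073-62412231) and Fap (chr2:62500943-62574075) are both on the minus strand, 88711 bases apart, with 1 protein-coding gene, Gcg, between them. Ly6c1 shares 16.2% of the 50-base words in the last 400 bases of its transcripts with Ly6c2 and 4.87% with Ly6a, and Ly6a shares 5.48% with Ly6c1, so their counts are uncertain to the extent that reads from those stretches were assigned to one or the other. Cd34, Dpp4 and Pi16 each overlap an annotated antisense gene.

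Promoter windows were in the RefSeq table used here (GRCm38.p6) for 5 of the 8 genes. The 250 bases before the annotated start are shown for Cd34, Pi16 and Dpp4, because Cd34 and Pi16 were the members that passed the test for Notch3 targeting in fibroblasts and Dpp4 marked the same cluster as Pi16. Capitals mark the core sequence recognised by RBPJ, the DNA-binding partner of cleaved Notch receptors, searched as TGGGAA and, for the other strand, TTCCCA. The windows are chr1:194938571-194938820 on the plus strand for Cd34, chr17:29318632-29318881 on the plus strand for Pi16, where the RefSeq start lies downstream of the GENCODE start, and chr2:62412232-62412481 on the minus strand for Dpp4.
Cd34: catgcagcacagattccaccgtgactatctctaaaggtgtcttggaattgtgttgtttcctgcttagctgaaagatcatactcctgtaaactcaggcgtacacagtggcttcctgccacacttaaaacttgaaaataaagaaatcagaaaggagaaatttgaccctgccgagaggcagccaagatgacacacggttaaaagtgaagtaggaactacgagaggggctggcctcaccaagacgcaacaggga
Pi16: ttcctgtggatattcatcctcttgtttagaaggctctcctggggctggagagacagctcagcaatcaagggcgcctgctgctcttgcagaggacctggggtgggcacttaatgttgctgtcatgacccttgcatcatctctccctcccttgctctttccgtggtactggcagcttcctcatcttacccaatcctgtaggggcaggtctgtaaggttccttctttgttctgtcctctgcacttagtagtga
Dpp4: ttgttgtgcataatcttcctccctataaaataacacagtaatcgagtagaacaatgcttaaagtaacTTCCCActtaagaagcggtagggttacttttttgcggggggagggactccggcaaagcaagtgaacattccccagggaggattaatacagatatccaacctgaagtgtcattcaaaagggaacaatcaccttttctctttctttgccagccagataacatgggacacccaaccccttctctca
The Dpp4 window held 1 match, and the Cd34 and Pi16 windows held 0. Over the 6 windows of the 5 genes (Ly6c1 has a pair of starts) 1 held a match. Among all windows of the same length, 7094 of 32851 (21.6%) held one. A match is a stretch of letters and was not examined for binding.

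The files held 18491 barcodes and 104771797 unique molecular identifiers (UMIs, each counting 1 captured transcript), with 11636998 to 24535233 UMIs per library and a median of 3988 to 7561 per barcode. In each library 41 to 98 barcodes also occurred in another library. Notch3 itself stood at 0.299 CPM (UMIs of a gene scaled to a library or cluster total of 1e6) in healthy knockout cells against 4.96 CPM in healthy wild-type cells. It stood at 0.257 CPM in arthritic knockout cells against 5.58 CPM in arthritic wild-type cells. It stood at 2.21 CPM in anti-Notch3 cells against 3.30 CPM in isotype-control cells, where the antibody acts on the protein. Intervals given below are 95% intervals that cover counting error only, not differences between animals or libraries.

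Cells were clustered without the 8 genes, so that the genes could be read across clusters they did not define. The fibroblasts fell into 10 clusters. A lining-like cluster (1672 cells) was led by Clic5, Tspan15, Hbegf and Prg4, the lubricin gene. Each of the others is called here by 1 of its leading genes, which need not be the first by fold. The 4 sublining-like clusters are called Efhd1-led (1491 cells, where Pi16 and Stmn4 ranked above Efhd1), Ccl11-led after a chemokine gene (1644 cells), Myoc-led (1810 cells) and Sfrp4-led after a Wnt antagonist gene (1258 cells, where Cfd ranked above Sfrp4). Clusters called by the acute-phase gene Saa3 (inflammatory-like, 1091 cells) and by H19 (wound-type-like, 762 cells, where Mfap4 ranked above H19) came almost wholly from 3 arthritic libraries. Saa3-led cells numbered 6 in the arthritic knockout library against 436 in arthritic wild type and 56 in the anti-Notch3 library against 581 in isotype control. The H19-led cluster held 2 cells in the arthritic knockout library against 154 in arthritic wild type, and 131 cells in the anti-Notch3 library against 472 in isotype control. A tendon-like cluster was led by Chad (481 cells). Clusters led by Scrg1 (565 cells) and by Tnn (562 cells, of which 502 were from the isotype-control library) kept no name. The marker list with the highest mean fold was that of glial cells in Scrg1-led and that of chondrocytes in Tnn-led cells. Both were counted as fibroblasts, with the 6 fibroblast markers summing to 27059 CPM in Scrg1-led and 48008 CPM in Tnn-led cells, against 29.5 CPM for the 5 glial markers in Scrg1-led and 299 CPM for the 6 chondrocyte markers in Tnn-led cells. In lining-like and Chad-led cells it was that of osteoblasts, whose 6 markers summed to 588 and 558 CPM beside 7278 and 57783 CPM for the fibroblast markers. Endothelium comprised capillary-like (616 cells), venous-like (450) and lymphatic-like (42) clusters. Sublining-like cells numbered 2270 in the healthy knockout library against 1486 in healthy wild type, 1390 in arthritic knockout against 256 in arthritic wild type, and 596 in anti-Notch3 against 205 in isotype control.

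**Figure D1:**
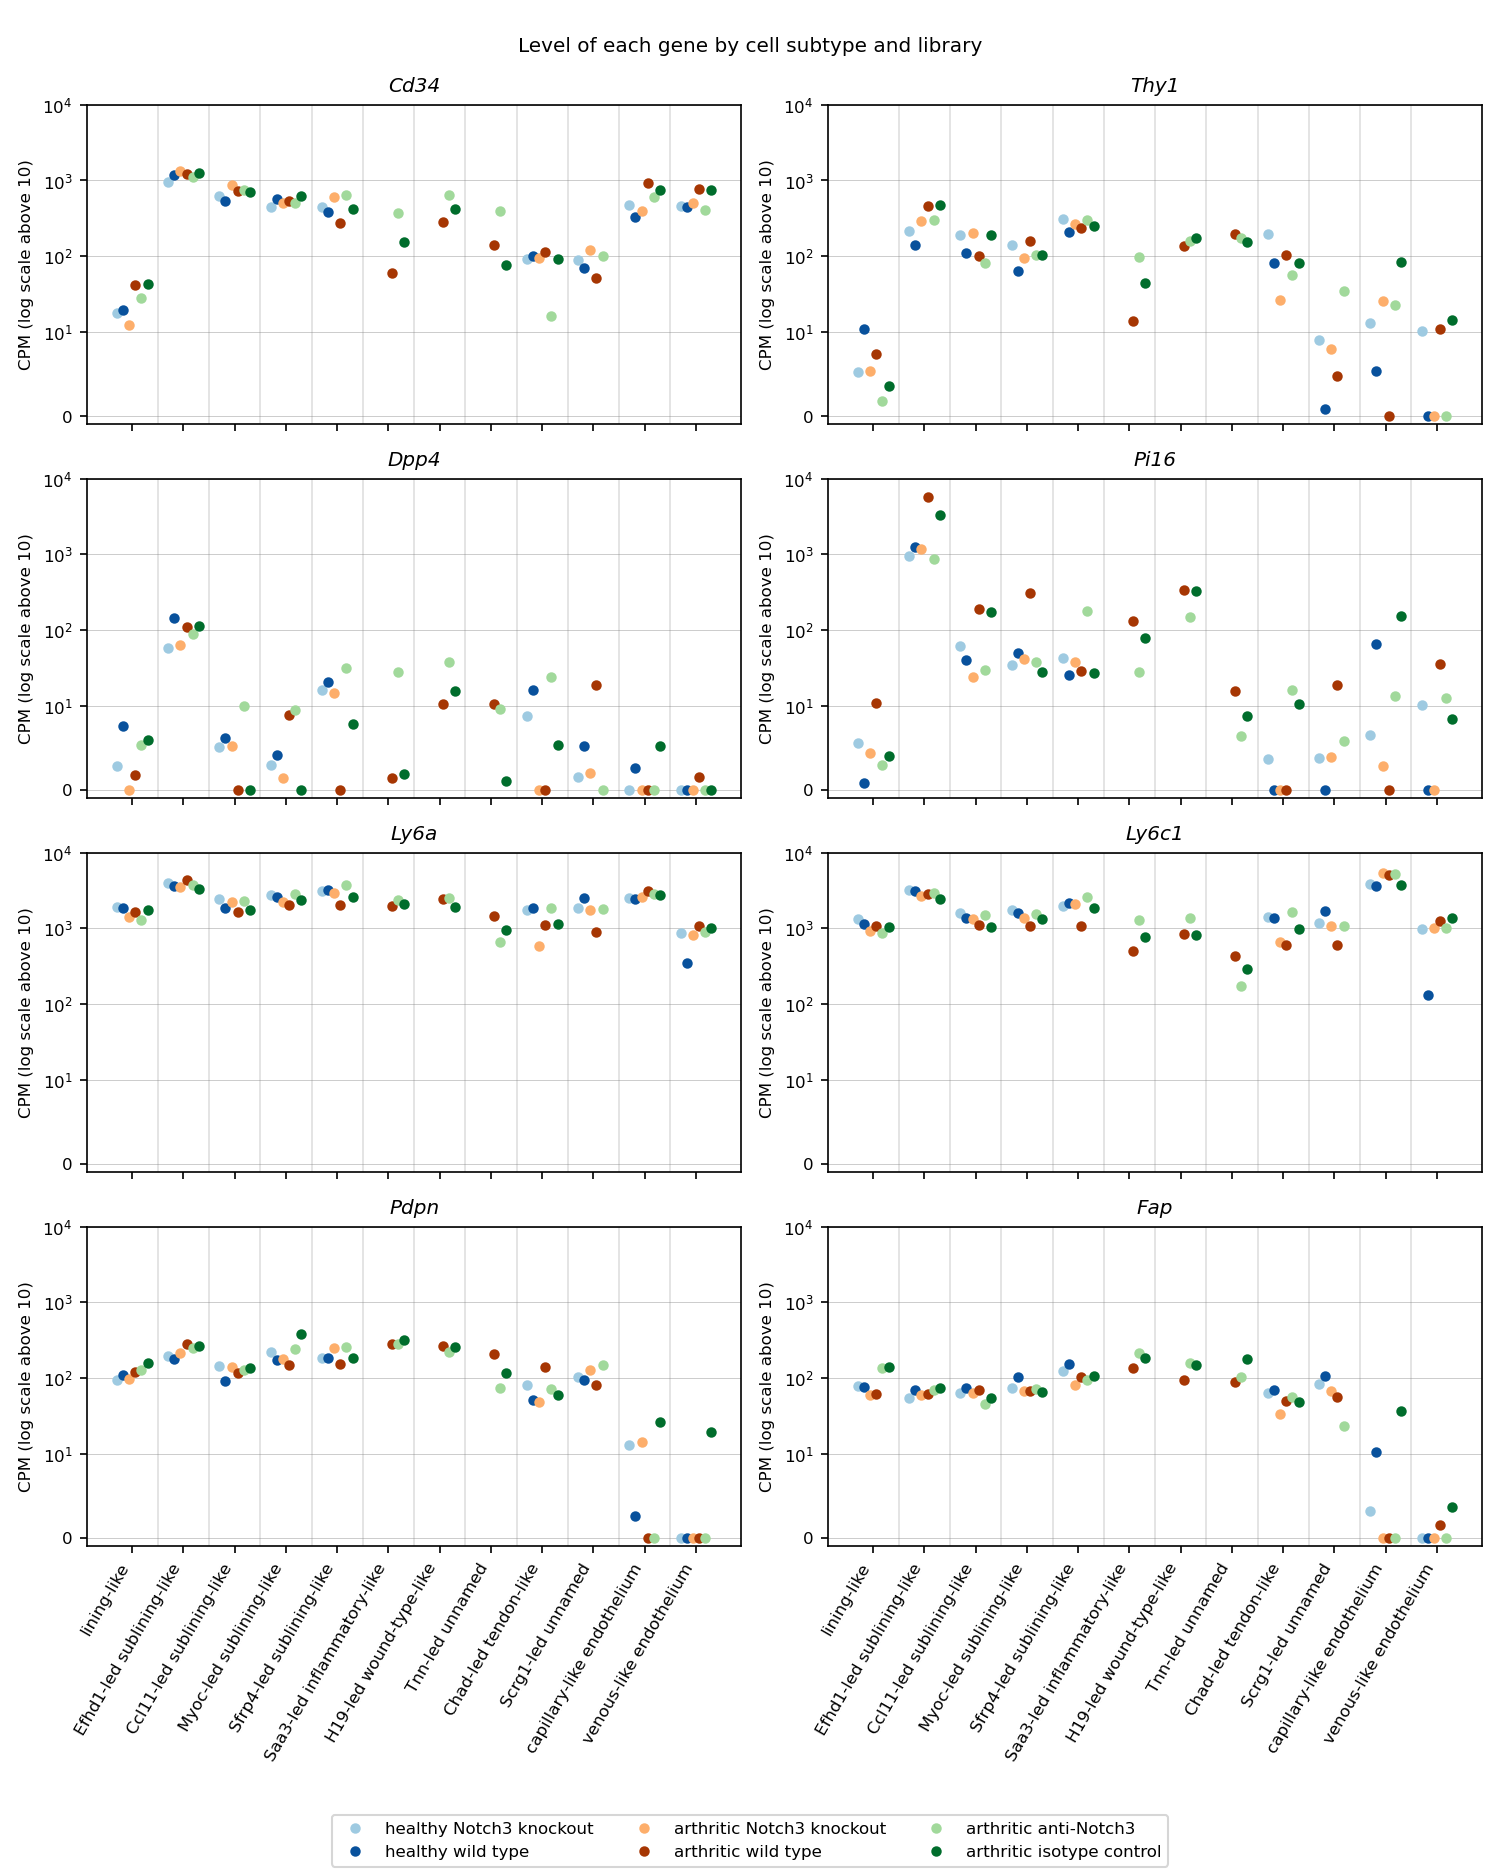
Level of each of the 8 genes (CPM of summed UMIs, log scale above 10) by fibroblast and endothelial cluster. Each point is 1 library with at least 20 cells of the cluster. Pi16 and Dpp4 peak in the Efhd1-led cluster, Thy1 is near the floor and Cd34 is low in lining-like cells, and Ly6c1 is highest in capillary-like endothelium.

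Among the anchored glycoproteins, Thy1 separated lining from sublining in every library. Lining-like cells had 5.26 CPM of Thy1 in healthy knockout against 10.9 in healthy wild type, 5.32 in arthritic knockout against 7.34 in arthritic wild type, and 1.77 in anti-Notch3 against 3.62 in isotype control. These levels lie near the 0.581 to 4.78 CPM of myeloid cells, which gauge free RNA in the droplets. In the Efhd1-led cluster Thy1 had 216 CPM in healthy knockout against 142 in healthy wild type, 291 in arthritic knockout against 456.5 in arthritic wild type, and 305 in anti-Notch3 against 471 in isotype control. The Sfrp4-led cluster had 206 to 311.5 CPM over the 6 libraries. The ranges of the Efhd1-led and Sfrp4-led clusters overlap, so neither stands first in every library. The H19-led (135 to 175 CPM, 3 libraries), Tnn-led (154 to 195, 3 libraries), Ccl11-led (81.5 to 205, 6 libraries) and Myoc-led (63.4 to 160, 6 libraries) clusters followed with overlapping ranges. Saa3-led cells had 13.8 to 96.7 CPM. Thy1 was not particular to fibroblasts. Mural-like cells had a median of 658 CPM and T and NK-like cells a median of 555 CPM, and the 42 lymphatic-like cells together had 1211 CPM.

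Ly6a and Ly6c1 were high in all fibroblasts and graded, and every fibroblast cluster lay above the myeloid cells in both. The Efhd1-led cluster had the highest median of both, at 3635 CPM for Ly6a (3354 to 4402 over 6 libraries) and 2879 CPM for Ly6c1 (2408 to 3246). Lining-like cells still had 1304 to 1924 CPM of Ly6a and 858 to 1320 CPM of Ly6c1. The Tnn-led cluster was low for both, with 661 to 1464 CPM of Ly6a and 173 to 427 CPM of Ly6c1. Capillary-like endothelium exceeded every fibroblast cluster for Ly6c1, at 3664 to 5368 CPM, with no overlap, while its Ly6a level of 2467 to 3154 CPM lay within the fibroblast range. Venous-like endothelium had 347 to 1082 CPM of Ly6a and 133 to 1367 CPM of Ly6c1. Myeloid cells had medians of 52.1 CPM for Ly6a and 25.4 CPM for Ly6c1.

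The sialomucin gene Cd34 was high in all 4 sublining-like clusters and highest in the Efhd1-led one. The Efhd1-led cluster had 949.7 CPM of Cd34 in healthy knockout against 1181 in healthy wild type, 1332 in arthritic knockout against 1221 in arthritic wild type, and 1122 in anti-Notch3 against 1272 in isotype control. It lay above the Ccl11-led cluster (532 to 873 CPM) with no overlap over the 6 libraries. The Ccl11-led, Myoc-led (446 to 614 CPM) and Sfrp4-led (276 to 642 CPM) clusters overlapped in range. H19-led cells had 287 to 641 CPM, Saa3-led cells 59.9 to 369 CPM and Tnn-led cells 76.1 to 395 CPM. Lining-like cells had 17.8 CPM in healthy knockout against 19.3 in healthy wild type, 12.4 in arthritic knockout against 42.2 in arthritic wild type, and 28.3 in anti-Notch3 against 42.6 in isotype control, where myeloid cells had 4.02 to 12.1 CPM. Vascular endothelium, capillary-like and venous-like cells together, had 363 to 784 CPM, within the range of the sublining clusters.

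Pdpn, by contrast, did not set lining and sublining apart. Its levels were 95.6 to 160 CPM in lining-like cells, 92.4 to 142 CPM in Ccl11-led cells, 178 to 282 CPM in Efhd1-led cells and 151 to 378 CPM in Myoc-led cells. The inflammatory-like Saa3-led cells had the highest median, at 279 to 319 CPM over 3 libraries. The 42 lymphatic-like cells had 568 CPM together, and capillary-like and venous-like endothelium at most 25.9 CPM.

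The peptidase genes lie near each other in the genome, with Gcg between them, and differed in their distribution. Among fibroblasts, Dpp4 was sparse outside the Efhd1-led cluster. That cluster had 58.3 CPM (154 UMIs) in healthy knockout against 144.5 CPM (200 UMIs) in healthy wild type, 63.0 CPM (76 UMIs) in arthritic knockout against 112 CPM (55 UMIs) in arthritic wild type, and 89.0 CPM (101 UMIs) in anti-Notch3 against 112 CPM (45 UMIs) in isotype control. The next highest single value among fibroblast clusters was 38.1 CPM in H19-led cells, so the Efhd1-led cluster did not overlap any other. Lining-like cells had 0 to 7.56 CPM and vascular endothelium at most 1.82 CPM, while myeloid cells together had 2.81 to 13.2 CPM. Other leukocytes reached the Efhd1-led range, with 38.4 to 60.8 CPM in dendritic-like cells (4 libraries) and 55.3 CPM in arthritic knockout and 132 CPM in healthy wild-type B-like cells. Fap was spread over all fibroblasts instead. It had medians of 185 CPM in Saa3-led, 148 in H19-led, 105 in Sfrp4-led, 76.8 in lining-like and 65.1 in Efhd1-led cells, and vascular endothelium had at most 9.81 CPM. The range of the Efhd1-led cluster (53.8 to 74.7 CPM) overlaps that of the lining-like cells (60.3 to 140 CPM).

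Pi16 was concentrated in the same cluster as Dpp4, and within it varied more between libraries than the other 7 genes. The Efhd1-led cluster had 955 CPM (2523 UMIs) in healthy knockout against 1235 CPM (1710 UMIs) in healthy wild type. It had 1185 CPM (1430 UMIs) in arthritic knockout against 5694 CPM (2807 UMIs) in arthritic wild type, and 861.5 CPM (978 UMIs) in anti-Notch3 against 3337 CPM (1340 UMIs) in isotype control. The untargeted arthritic libraries were thus above the other 4, which lay between 861.5 and 1235 CPM. In the Ccl11-led cluster Pi16 had 24.3 CPM in arthritic knockout against 190 in arthritic wild type and 29.9 in anti-Notch3 against 172 in isotype control. H19-led cells had 151 CPM in anti-Notch3 against 333 in isotype control and 343.5 in arthritic wild type. The Sfrp4-led cluster went the other way, on few UMIs or few cells. It had 38.2 CPM (34 UMIs) in arthritic knockout against 28.6 (6 UMIs, 41 cells) in arthritic wild type. It had 179.7 CPM (166 UMIs, 136 cells) in anti-Notch3 against 27.3 (7 UMIs) in isotype control. Pi16 was seen in at most 10.3% of the Sfrp4-led cells of any library. With coarser clustering, 187 Sfrp4-led cells fell in the cluster that held 1249 Efhd1-led cells. Whether a few cells near the Efhd1-led cluster gave the higher Sfrp4-led values was not tested. The Myoc-led cluster was split, with 41.9 CPM in arthritic knockout against 306 in arthritic wild type, and 37.9 (20 UMIs) in anti-Notch3 against 28.3 (3 UMIs) in isotype control. Myeloid cells had 2.01 to 17.7 CPM, with the highest values in the isotype control (17.7) and arthritic wild type (13.3). In health the Ccl11-led cluster had 60.8 CPM in knockout against 40.0 in wild type.

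**Figure D2:**
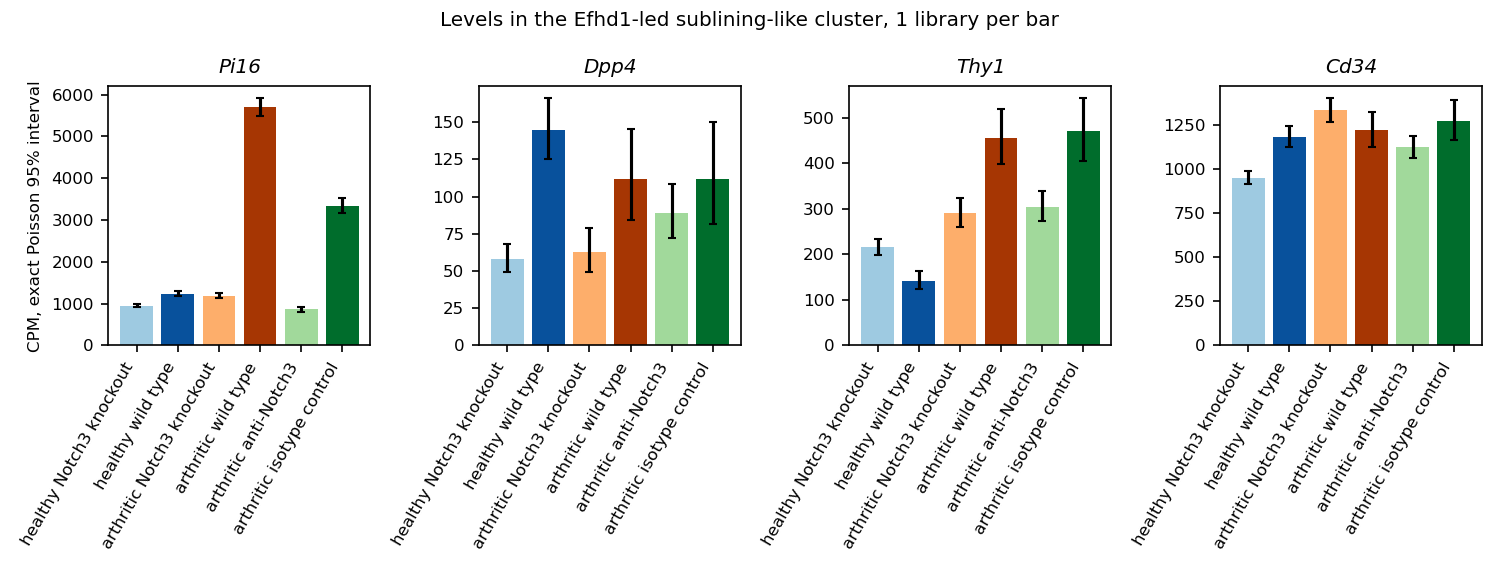
Levels of Pi16, Dpp4, Thy1 and Cd34 in the Efhd1-led sublining-like cluster, 1 bar per library, in CPM with exact Poisson 95% intervals; each pair has the knockout or antibody library left of its partner. Pi16 is 5694 CPM in arthritic wild type and 3337 CPM in isotype control, above the 861.5 to 1235 CPM of the other 4 libraries.

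Cells were then asked for both transcripts at once. Deeper cells show more genes, so each cell was thinned at random to 2000 UMIs, and 364 of 11336 fibroblasts below that depth were left out. Of the 10972 remaining fibroblasts, pooled over libraries, 11.1% had Thy1 and Cd34, 6.64% Thy1 alone, 32.6% Cd34 alone and 49.7% neither. The product of the single shares was 7.77%. In 3576 myeloid cells 0 had both, which allows a share of up to 0.0839%, 0.419% had Thy1 alone and 1.12% Cd34 alone. At this depth most transcripts of a cell are not seen, so a cell without a UMI is not a cell without the protein or the transcript.

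Lining-like cells lacked both in 91.4% to 97.5% of cells, depending on the library. Their 0.921% with Thy1 alone, 3.87% with Cd34 alone and 0.184% with both, pooled over 1629 cells, all lie above the myeloid shares, by a few percentage points at most. The sublining-like clusters were mainly Cd34+ and differed in how many of these cells also had Thy1. In the Efhd1-led cluster 28.0% of 1422 cells had both, 59.0% Cd34 alone, 3.31% Thy1 alone and 9.70% neither. By library, both were found in 24.02% of Efhd1-led cells in healthy knockout against 19.5% in healthy wild type, 30.7% in arthritic knockout against 42.1% in arthritic wild type, and 29.9% in anti-Notch3 against 48.1% in isotype control. The product of the single shares was 27.2% for the pooled cluster, close to the observed 28.0%.

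The Ccl11-led and Sfrp4-led clusters had similar pooled shares with both, at 17.05% and 18.4%. They differed in the rest. Sfrp4-led cells had Thy1 alone in 12.9% and Cd34 alone in 34.0%, and Ccl11-led cells had Thy1 alone in 6.23% and Cd34 alone in 51.0%. The Myoc-led cluster had both in 9.24%, with a range of 5.88% to 11.1% over the libraries. In all sublining-like cells together the observed 17.6% with both stood beside a product of 16.2%.

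Outside the sublining-like clusters the balance shifted. Tnn-led cells had Thy1 alone (20.0% of 556) more often than Cd34 alone (10.8%), and Chad-led tendon-like cells did too (13.7% against 9.62% of 468). In the anti-Notch3 library, however, Tnn-led cells had Thy1 alone in 17.2% and Cd34 alone in 34.5% of 29 cells. Scrg1-led cells had Cd34 alone in 15.6% and Thy1, with or without Cd34, in under 1% of 540 cells. The ratio of Cd34 to Thy1 UMIs ran from 2.68 to 8.30 in Efhd1-led cells and from 1.18 to 2.29 in Sfrp4-led cells over the 6 libraries, with no overlap, and from 0.493 to 2.28 in Tnn-led cells over 3 libraries. H19-led cells had both in 13.8% and Saa3-led cells in 2.94%. The Saa3-led share was 17.3% of 52 cells in anti-Notch3 against 2.99% of 568 in isotype control, and 0.959% of 417 in arthritic wild type.

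Endothelium carried Cd34 almost always without Thy1. Venous-like cells had Cd34 alone in 65.3% of 398 cells and both in 0.251%, and capillary-like cells had Cd34 alone in 52.4% of 269 cells and both in 2.60%. The reverse held in 3 other cell types. Mural-like cells had Thy1 alone in 65.4% of 78 cells, T and NK-like cells in 54.3% of 164, and lymphatic-like cells in 74.3% of 35. In each of them 0 cells had Cd34 alone, which allows a share of up to 3.85% in mural-like, 1.83% in T and NK-like and 8.57% in lymphatic-like cells.

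**Figure D3:**
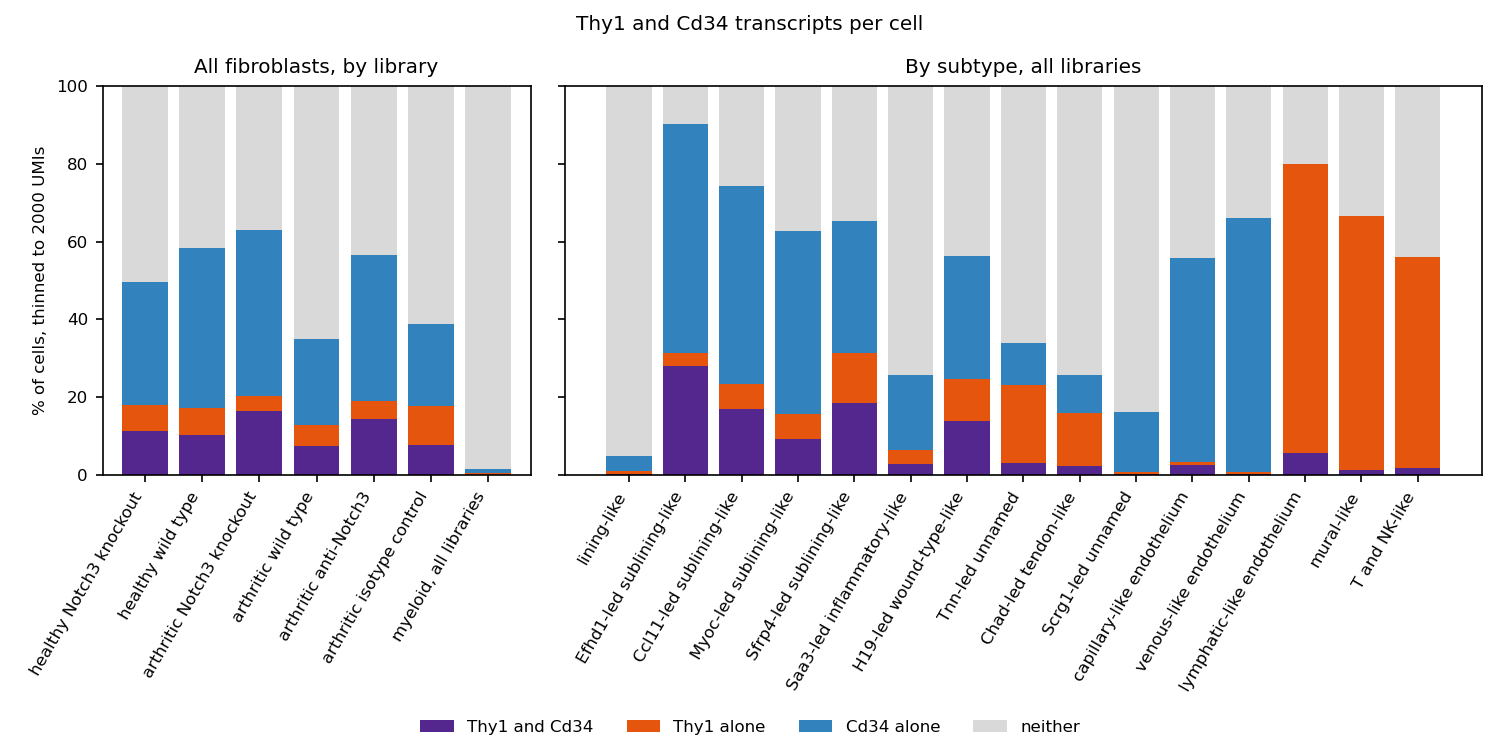
Share of cells (%, thinned to 2000 UMIs) with Thy1 and Cd34, Thy1 alone, Cd34 alone or neither, by library for all fibroblasts, with pooled myeloid cells beside them (left), and by cluster pooled over libraries (right); each bar adds to all cells of its cluster or library. The share with both is 28.0% in the Efhd1-led cluster and 0.184% in lining-like cells.

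Where the cells with both transcripts sat depended on the library. Sublining-like clusters held 386 of 398 such fibroblasts in healthy knockout against 178 of 180 in healthy wild type, and 266 of 269 in arthritic knockout against 54 of 72 in arthritic wild type. They held 116 of 149 in anti-Notch3 against 54 of 154 in isotype control. In the isotype-control library the H19-led cluster held 69 of the 154. Of the fibroblasts with Thy1 alone, the Tnn-led cluster held 5 of 47 in anti-Notch3 against 100 of 202 in isotype control.

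Over all fibroblasts the share with both was 11.2% (10.2%–12.3%) in healthy knockout against 10.3% (8.92%–11.8%) in healthy wild type. It was 16.3% (14.6%–18.2%) in arthritic knockout against 7.40% (5.83%–9.23%) in arthritic wild type, and 14.4% (12.3%–16.7%) in anti-Notch3 against 7.64% (6.52%–8.89%) in isotype control. Within sublining-like cells the order in arthritis was the opposite. There the share was 20.1% (17.9%–22.3%) in arthritic knockout against 22.9% (17.7%–28.8%) in arthritic wild type, and 20.5% (17.2%–24.02%) in anti-Notch3 against 29.7% (23.1%–36.9%) in isotype control. In health it was 17.5% in knockout against 12.2% in wild type. The exact binomial intervals of the arthritic genotype pair overlap in sublining-like cells, and so do those of the antibody pair.

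To compare conditions, UMIs were summed per library and tested across genes with edgeR's quasi-likelihood test. Knockout over wild type and antibody over isotype control were taken as repeats of Notch3 targeting in arthritis. The p-values therefore rest on how far a knockout and an antibody disagree, and not on the spread between replicate libraries. Each gene had 1 residual degree of freedom, and the test drew its spread toward that of the other genes, in endothelial cells almost wholly. A gene whose arthritic pairs differ in the size of the effect can thus still be called, as was Thy1 in endothelial cells below. In sums over several clusters, the test alone cannot tell a change in the mix of cells from a change of level within a cluster. Levels per cluster and at a fixed mix are therefore given beside it.

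In all fibroblasts together, Cd34 was the only one of the 8 genes called for Notch3 targeting in arthritis, and it rose. Cd34 had 622 CPM in arthritic knockout against 224 in arthritic wild type and 518 in anti-Notch3 against 209 in isotype control, a log2 fold change of 1.45 (SE 0.178, adjusted p = 0.0269, edgeR). Among all 12415 genes tested 298 were called (2.4%), 183 higher and 115 lower, so 1 of 8 is to be read against that background. In health Cd34 had 355 CPM in knockout against 443 in wild type, and the difference between arthritis and health, 1.69, did not pass the threshold (SE 0.304, adjusted p = 0.105; 49 genes, 0.395%, passed).

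Ly6c1 had 1530 CPM in arthritic knockout against 829 in arthritic wild type and 1620 in anti-Notch3 against 756 in isotype control, with a log2 fold change of 1.05 (SE 0.211, adjusted p = 0.0763). Thy1 had 150 CPM in arthritic knockout against 84.6 in arthritic wild type and 145 in anti-Notch3 against 111 in isotype control, with 0.66 (SE 0.177, adjusted p = 0.137). Both were past the threshold when the Tnn-, Scrg1- and Chad-led clusters were left out (Ly6c1 0.95, adjusted p = 0.0461; Thy1 0.87, adjusted p = 0.0354), a choice made after seeing the data. Dpp4 (1.17, SE 0.429), Ly6a (0.38, SE 0.237), Pdpn (−0.31, SE 0.176), Fap (−0.59, SE 0.152) and Pi16 (−0.60, SE 0.382) were not called. Pi16 went apart in the arthritic pairs, with 199 CPM in knockout against 544 in wild type, and 196 in anti-Notch3 against 178 in isotype control.

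The mix of fibroblast subtypes moved with these values, and lining-like and Saa3-led cells had less Cd34 than sublining-like cells in every library compared. The ratio was therefore computed again with every subtype weighted by its share of UMIs in the untargeted partner. In the arthritic genotype pair the log2 ratio of Cd34, knockout over wild type, was 1.48 as measured and 0.20 (0.10 to 0.30) at a fixed mix. In the antibody pair it was 1.31 as measured and 0.96 (0.85 to 1.07) at the isotype control's mix, but 0.16 at the anti-Notch3 library's mix. The isotype control's mix gives more weight to clusters seen mainly in untargeted arthritic joints. There, Saa3-led cells had 369 CPM of Cd34 in anti-Notch3 (56 cells) against 153 in isotype control (581 cells), H19-led cells 641 against 421, and Tnn-led cells 395 (29 cells) against 76.1 (502 cells). The fixed mix of the arthritic genotype pair rests on 7 clusters that hold 29.4% of the arthritic wild-type library's fibroblast UMIs, because the others had under 20 cells in the knockout. Over these clusters the arthritic wild type had 484 CPM of Cd34, against 224 over all its fibroblasts.

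For Thy1 the sign of the ratio depended on the mix. In the arthritic genotype pair, where the fixed mix covers only those 7 clusters for every gene, it was 0.82 as measured and −0.35 (−0.53 to −0.17) at the fixed mix. In the antibody pair it was 0.39 as measured, 0.17 (−0.03 to 0.38) at the isotype control's mix and −0.26 at the anti-Notch3 library's. In the healthy pair it was −0.03 as measured and 0.69 (0.59 to 0.80) at the fixed mix, where Thy1 was higher in knockout than in wild type in 4 of 4 sublining-like clusters. Pi16 at a fixed mix was −2.27 (−2.36 to −2.18) in the arthritic genotype pair and −1.44 (−1.62 to −1.27) in the antibody pair, against −1.45 and 0.14 as measured. For Ly6c1 the ratio was 0.88 as measured and 0.12 at the fixed mix for arthritic knockout over wild type, and 1.10 and 0.41 for anti-Notch3 over isotype control. For Fap it was −0.74 as measured and −0.08 at the fixed mix for arthritic knockout over wild type, and −0.57 and −0.10 for anti-Notch3 over isotype control.

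**Figure D4:**
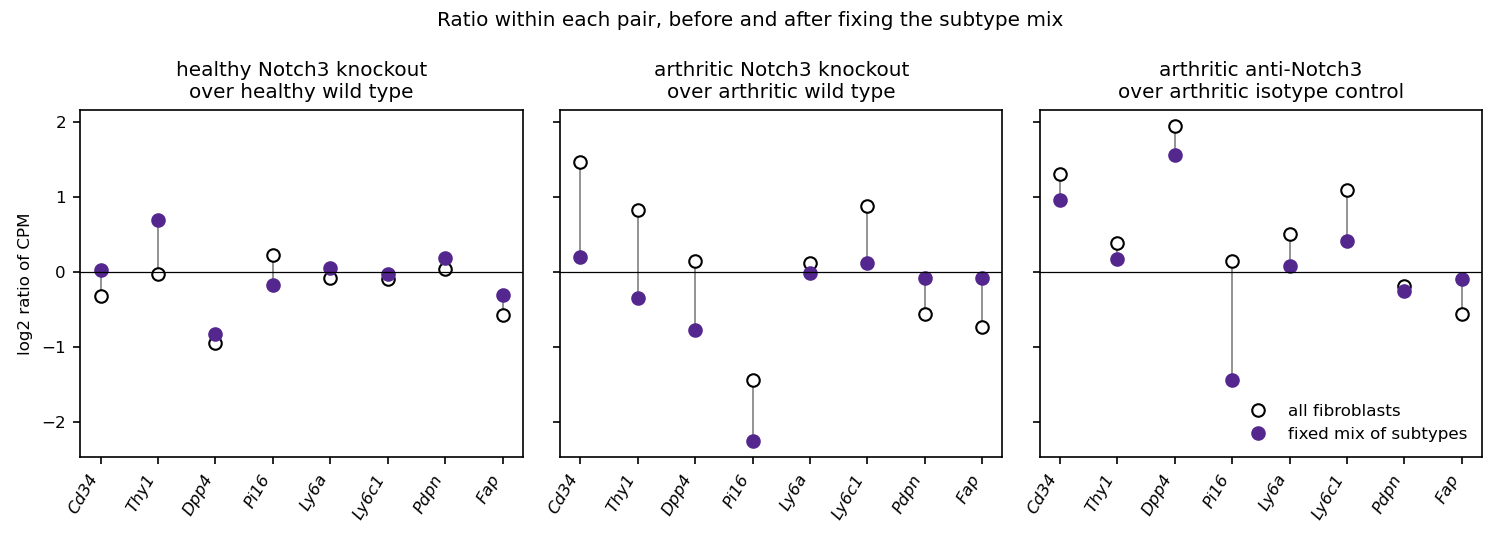
Log2 ratio of CPM in fibroblasts within each pair (knockout over wild type, or anti-Notch3 over isotype control), as measured over all fibroblasts (open points) and at the untargeted partner's mix of subtypes (filled points), with a grey line joining both values of a gene. Filled points use only clusters with at least 20 cells in both libraries. In the arthritic genotype pair these hold 29.4% of the arthritic wild-type fibroblast UMIs. Cd34 in the arthritic genotype pair is 1.48 as measured and 0.20 at the fixed mix.

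In sublining-like fibroblasts alone the picture changed. Pi16 fell with Notch3 targeting in arthritis, with 262 CPM in arthritic knockout against 2522 in arthritic wild type and 371 CPM in anti-Notch3 against 1486 in isotype control (log2 fold change −2.59, SE 0.201, adjusted p = 5.38e-07, edgeR). It was the only one of the 8 called, where 109 of 10774 genes (1.01%) were. In health Pi16 stood at 279 CPM in knockout against 166 in wild type, and the difference between the effect in arthritis and that in health was −3.52 (SE 0.337, adjusted p = 4.02e-06; 373 genes, 3.46%, called). The share of sublining-like cells that were Efhd1-led also differed between libraries (611 of 2270 in healthy knockout against 199 of 1486 in healthy wild type, 285 of 1390 in arthritic knockout against 102 of 256 in arthritic wild type, 209 of 596 in anti-Notch3 against 85 of 205 in isotype control). Within the Efhd1-led cluster alone, chosen after seeing the data, Pi16 still fell (log2 fold change −2.07, SE 0.180, adjusted p = 3.66e-05, edgeR).

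Genes that respond to tissue dissociation moved with this result. Of the 14 listed, 6 rose and 1 fell in sublining-like cells with targeting in arthritis (median log2 fold change 0.46, against 0.01 for all genes). Their summed level was 42848 CPM in arthritic knockout against 30781 in arthritic wild type, 29240 in anti-Notch3 against 23028 in isotype control, and 39381 in healthy knockout against 25608 in healthy wild type. In the healthy pair Pi16 was higher in knockout over all sublining-like cells, and in the Efhd1-led cluster it was 955 CPM in knockout against 1235 in wild type. Efhd1 itself had 269 CPM in the cluster in arthritic knockout against 341 in arthritic wild type, and 205 in anti-Notch3 against 311 in isotype control. The part of either in the fall of Pi16 was not tested.

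Cd34 did not follow in sublining-like cells. It had 802.5 CPM in arthritic knockout against 816 in arthritic wild type and 809 in anti-Notch3 against 864 in isotype control, with a log2 fold change of −0.01 (SE 0.128, adjusted p = 0.994). In health it had 610 CPM in knockout against 535 in wild type. Thy1 had 194 CPM in arthritic knockout against 287 in arthritic wild type and 229 in anti-Notch3 against 318 in isotype control (−0.47, SE 0.139, adjusted p = 0.145), and 195 in healthy knockout against 152 in healthy wild type. The difference of the Thy1 effect between arthritis and health was −1.001 (SE 0.232, adjusted p = 0.0175), which DESeq2 did not call (adjusted p = 0.554). Dpp4 had 16.7 CPM in arthritic knockout against 49.1 in arthritic wild type and 44.2 in anti-Notch3 against 50.7 in isotype control (−0.81, SE 0.263, adjusted p = 0.199). Ly6a (0.09), Ly6c1 (0.15), Pdpn (−0.03) and Fap (−0.05) had log2 fold changes with standard errors of 0.126 to 0.169 and were not called.

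**Figure D5:**
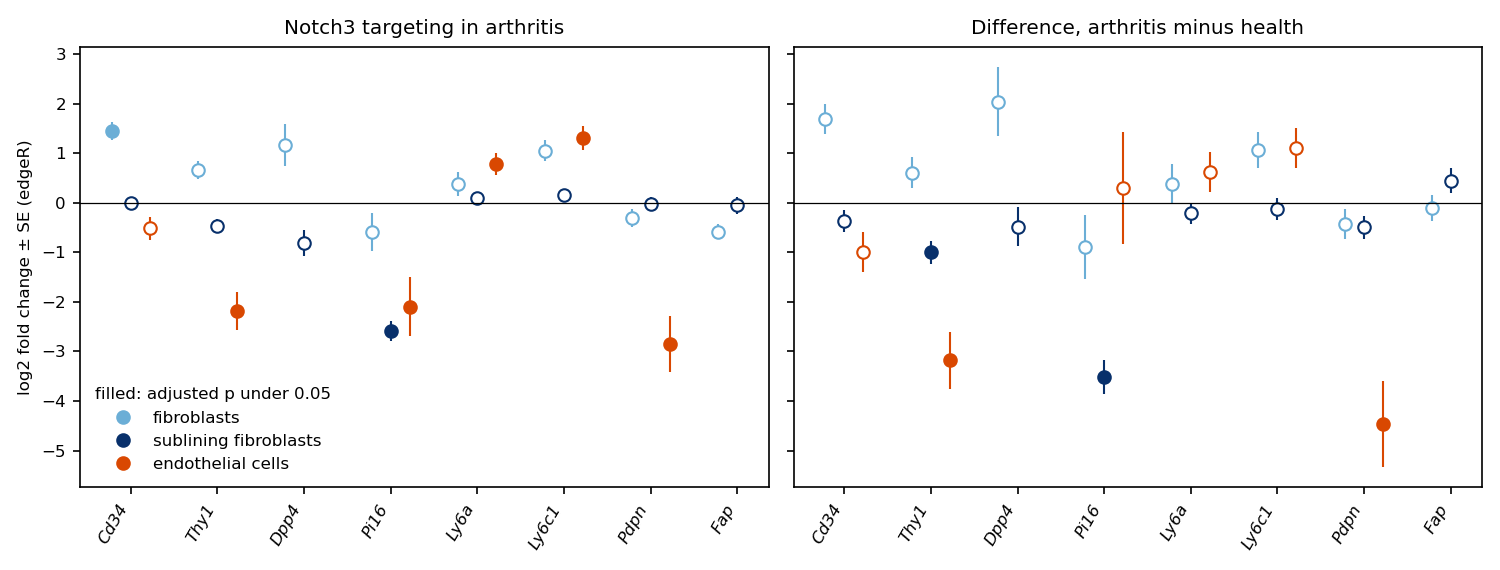
Log2 fold change with its standard error (edgeR) for the 8 genes (6 in endothelial cells) in all fibroblasts, sublining-like fibroblasts and endothelial cells, for Notch3 targeting in arthritis and for its difference from health. Filled points have an adjusted p under 0.05; Cd34 is called in all fibroblasts (1.45) and Pi16 in sublining-like fibroblasts (−2.59).

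Neither an effect of Notch3 targeting shared by all 3 pairs nor an effect of arthritis over the genotype pairs was called for any gene. The count was 0 (0%) with edgeR in all fibroblasts, in sublining-like fibroblasts and in endothelial cells. For targeting over the 3 pairs 1027, 658 and 487 genes had an unadjusted p under 0.05 in these 3 classes, and DESeq2 called 162, 16 and 16. For arthritis the numbers were 517, 494 and 252 with edgeR and 4, 6 and 1 called with DESeq2. The log2 fold change of arthritis was −0.13 (SE 0.458) for Cd34, −0.13 (SE 0.251) for Thy1 and 1.29 (SE 0.450) for Pi16 in all fibroblasts.

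Related gene lists give the surroundings of these values in all fibroblasts. Of 14 other sublining genes, 4 rose with Notch3 targeting in arthritis and none fell (median log2 fold change 0.63, against 0.00 for all genes). They were Ccl11 (2.76, adjusted p = 0.014), Gsn, encoding the actin-severing protein gelsolin (2.39, adjusted p = 0.0351), Apod, encoding apolipoprotein D (1.18, adjusted p = 0.0421), and Cygb, encoding cytoglobin (1.05, adjusted p = 0.0443; all edgeR). In sublining-like cells alone 0 of the 14 passed in either direction, with a median of 0.08. Of 11 lining genes 4 rose (Clic5 1.18, Hspb7 1.45, Timp3 1.69, Tspan15 1.16) and 1 fell (Tspan6 −1.15), with a median of 0.81. Of 15 other mesenchymal surface antigens tested, Icam1, an adhesion molecule for leukocytes, rose (2.11, adjusted p = 0.0193) and Nt5e (CD73) fell (−1.64, adjusted p = 0.0351). Of 10 tested relatives of the 8 genes, among them Ly6e and the peptidases Dpp7, Dpp8 and Dpp9, 0 were called, with a median of −0.29. Of the 14 dissociation-response genes 0 were called, with a median of 0.88. Their summed level moved with the Cd34 result, at 38119 CPM in arthritic knockout against 19602 in arthritic wild type and 23356 in anti-Notch3 against 14879 in isotype control, and was 33736 in healthy knockout against 24178 in healthy wild type. Their part in that result was not tested.

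In endothelial cells 1023 of 6349 genes (16.1%) were called for Notch3 targeting in arthritis, and 5 of the 6 members tested were among them. Dpp4 and Fap had too few counts to be tested. Ly6c1 rose, with 3995 CPM in arthritic knockout against 1529 in arthritic wild type and 3474 CPM in anti-Notch3 against 1663 in isotype control (1.30, SE 0.237, adjusted p = 1.3e-06). Ly6a had 2026 CPM in arthritic knockout against 1223 in arthritic wild type and 2011 in anti-Notch3 against 1255 in isotype control (0.78, SE 0.230, adjusted p = 0.00688), a call that DESeq2 did not give (adjusted p = 0.0532). Capillary-like cells, in which both are high, were 178 of 234 endothelial cells in arthritic knockout against 22 of 131 in arthritic wild type, and 82 of 124 in anti-Notch3 against 59 of 233 in isotype control. The part of that mix in the result was not tested.

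Thy1 and Pdpn fell in endothelial cells. Thy1 had 17.5 CPM in arthritic knockout against 37.1 in arthritic wild type and 13.2 in anti-Notch3 against 134 in isotype control (−2.18, SE 0.388, adjusted p = 6.46e-07). Pdpn had 9.70 CPM in arthritic knockout against 27.9 in arthritic wild type and 0 in anti-Notch3, where a count of 0 allows up to 7.95 CPM, against 64.8 in isotype control (−2.85, SE 0.573, adjusted p = 1.56e-05). Lymphatic-like cells numbered 0 in arthritic knockout against 9 in arthritic wild type, and 0 in anti-Notch3 against 17 in isotype control. With them left out, chosen after seeing the data, both genes were below the count filter and had no call. Pi16 fell (−2.10, SE 0.6003, adjusted p = 0.00501) and stayed called without the lymphatic-like cells (−2.20, adjusted p = 0.00253). It was near the background, seen after thinning in medians of 2.04% of capillary-like, 1.72% of venous-like and 0.914% of myeloid cells. Myeloid Pi16, too, was highest in isotype control and arthritic wild type. The part of free RNA in this fall was not tested. The 6 marker genes of fibroblasts summed to 832 CPM in vascular endothelium of arthritic knockout against 381 in arthritic wild type, and had 196 CPM in anti-Notch3 against 1824 in isotype control. The difference between arthritis and health (599 of 6349 genes, 9.43%, called) was −4.47 for Pdpn and −3.18 for Thy1 (adjusted p = 1.51e-05 and 2.91e-06, edgeR), again with the lymphatic-like cells included. Cd34 had 433 CPM in vascular endothelium of arthritic knockout against 784 in arthritic wild type and 517 in anti-Notch3 against 739.5 in isotype control, and over all endothelial cells its log2 fold change of −0.51 was not called (SE 0.229, adjusted p = 0.115).

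Across 54 sums of 1 fibroblast or endothelial cluster in 1 library, each of the 8 genes was compared by correlation with other genes, members included. These correlations (Pearson's r of log2(CPM + 10), over 5281 genes) are descriptions, since sums share libraries, depth and clusters. Cd34 was most like Ace, the angiotensin-converting enzyme gene (r = 0.92), then Selenop and Slc1a5 (both 0.84), and Thy1 most like Apod and Fndc1 (both 0.86) and Twist1 (0.85). Pi16 and Dpp4 shared Stmn4 as their nearest gene (0.82 and 0.81) and had an r of 0.75 with each other. Pdpn was most like Efemp2 and Islr (both 0.94) and Olfml2b (0.93), and Fap most like Ctsk (0.95), Ssc5d (0.94) and Efemp2 (0.92). Ly6a (Naaa and Scara5 0.69, Usp18 0.68) and Ly6c1 (Efhd1 and Heg1 0.72, Tns1 0.70) had the weakest neighbours, and an r of 0.71 with each other. Pdpn and Fap had an r of 0.90, the highest between any of the 8 genes. Cd34 and Thy1 had an r of 0.60, and Cd34 and Fap −0.25. In vascular endothelium Pdpn and Fap were low and Cd34 was high, and r within fibroblasts alone was not computed.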

How the data were processed

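Counts are raw UMIs per gene and cell, as deposited by the authors; per the submitters' processing notes the tool was Cell Ranger 3.0.2 and the build mm10, and further upstream filters are not given in the sources used here. Every deposited barcode had over 500 genes and under 20% mitochondrial UMIs. Cells over 10% mitochondrial UMIs (414) and doublets called by Scrublet at an expected rate of 0.03 (179, from 3 in the isotype control to 103 in healthy knockout) were removed. Clustering used scanpy 1.11.5 and leidenalg 0.10.2 (2000 variable genes without the 8 genes, 30 principal components, 20 neighbours, resolution 1) under Python 3.11.15 with NumPy 2.4.6 and SciPy 1.17.1. Clusters were named from marker lists, and names rebuilt in this way may differ from the study's. Levels are CPM of UMIs summed per library and cluster (at least 20 cells) with exact Poisson intervals. Shares have exact Clopper-Pearson intervals. Where a count was 0, the limit given is the level or share that 3 counts would have, which is below the upper end of the exact interval.

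Sums over all fibroblasts, sublining-like fibroblasts and endothelial cells were fitted with edgeR 4.0.16 (R 4.3.3, limma 3.58.1; TMM scaling, low-count filter), with the pair, targeting in health and targeting in arthritis as terms, or the pair and targeting over the 3 pairs; p-values were Benjamini-Hochberg adjusted over all genes tested, at a threshold of 0.05. The script was tested on simulated data. DESeq2 1.42.0, median-of-ratios scaling, no low-count filter, doublets kept, no mitochondrial limit, a per-cell gate, resolution 0.5, other thinning depths, other weights and leaving out each pair were alternatives. Of the 11332 cells that the per-cell gate took as fibroblasts, 98.1% were also in fibroblast clusters. It gave 59.2% of these shared cells the same subtype, so its subtypes differ much from the clusters. The genes named are the 8, the 3 genes most like each over the cluster sums, the leading genes of clusters and the listed genes past the threshold in the fibroblast fit. The 8 genes, the lists and the tests were chosen with earlier results of these data known. Replicate numbers are all 1, given by accession order, and pair nothing; the pair term stands for the study's 3 comparisons.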

Additional observations from a re-analysis of the deposited data

Results flagged for a closer look

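The effect of Notch3 targeting in arthritis differed from that in health for 4 values of the 8 genes, by a test of the difference itself within edgeR's quasi-likelihood fit. They lie in sublining-like fibroblasts, where 3.46% of all genes tested were called, and in endothelial cells, where 9.43% were. In all fibroblasts, where 0.395% were called, none of the 8 genes passed. The health side of each difference is a single pair, whose barcodes carry library tags that lie far apart, so that genotype cannot be told apart from whatever these tags track.

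In sublining-like fibroblasts the difference for Pi16 was −3.52 on the log2 scale (SE 0.337, adjusted p = 4.02e-06, edgeR). The effect was −2.59 in arthritis and 0.93 in health, with Pi16 lower in both targeted arthritic libraries. The higher sum in healthy knockout did not hold within the Efhd1-led cluster, which made up 611 of 2270 sublining-like cells in healthy knockout against 199 of 1486 in healthy wild type. There Pi16 was 955 CPM in healthy knockout against 1235 in healthy wild type, and at a fixed mix of subtypes the healthy log2 ratio was −0.18. In the Efhd1-led cluster alone the difference between arthritis and health was −1.84 (adjusted p = 0.0114, edgeR).

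For Thy1 in the same cells the difference was −1.001 (SE 0.232, adjusted p = 0.0175, edgeR), with −0.47 in arthritis and 0.53 in health. It lost the call in the Efhd1-led cluster alone (−1.34, adjusted p = 0.0795), with the per-cell gate (−0.51, adjusted p = 0.324) and with DESeq2 (−1.01, adjusted p = 0.554).

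In endothelial cells the difference was −4.47 for Pdpn (SE 0.868, adjusted p = 1.51e-05, edgeR) and −3.18 for Thy1 (SE 0.579, adjusted p = 2.91e-06, edgeR). Lymphatic-like cells numbered 12 in healthy knockout against 4 in healthy wild type, 0 in arthritic knockout against 9 in arthritic wild type, and 0 in anti-Notch3 against 17 in isotype control. Without them neither gene passed the count filter.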

How the results depend on the processing

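Of 265 values of the 8 genes under an alternative, 240 kept their direction and side of the threshold, 7 gained a call, 5 lost one and 13 changed sign. The calls of Cd34 in all fibroblasts (1.35 to 1.53, adjusted p 2.31e-06 to 0.0453) and of Pi16 in sublining-like fibroblasts (−2.59 to −1.87, adjusted p 3.44e-68 to 0.0159) held in every alternative run. Leaving out an arthritic pair left no residual degree of freedom for targeting in arthritis, and leaving out any pair gave no difference from health, so these were not run. The causes of the shifts below were not tested.

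Sign changes without a call were as follows. In sublining-like cells Cd34 was 0.39 with the per-cell gate, 0.0369 without the low-count filter and 0.00823 in the Efhd1-led cluster alone, Thy1 was 0.0896 with the gate, Ly6a −0.0470 in the Efhd1-led cluster and Pdpn 0.0156 without the filter. For the difference from health in these cells, the gate gave 0.12 for Cd34, 0.27 for Dpp4, −0.34 for Fap and 0.21 for Ly6c1, and the Efhd1-led cluster alone gave 0.18 for Cd34 and 0.62 for Dpp4. In endothelial cells the difference for Pi16 was −2.37 with doublets kept.

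Counts of called genes moved more. For targeting in arthritis, fibroblasts had 915 without the filter, 104 with the per-cell gate and 519 without the Tnn-, Scrg1- and Chad-led clusters, against 298. Sublining-like fibroblasts had 12 with DESeq2, 49 in the Efhd1-led cluster alone, 39 with median-of-ratios scaling, 245 without the filter and 242 with the gate, against 109. Endothelial cells had 172 with DESeq2, against 1023. For the difference from health, fibroblasts had 152 with DESeq2, 5 with median-of-ratios scaling, 520 without the filter, 0 with the gate and 243 without the 3 clusters, against 49. Sublining-like fibroblasts had 44 with DESeq2, 33 in the Efhd1-led cluster alone and 213 with median-of-ratios scaling, against 373, and endothelial cells 64 with DESeq2, against 599. For targeting over the 3 pairs, where 0 were called, fibroblasts had 162 with DESeq2, 44 without the filter and 3 to 280 with a pair left out. Sublining-like fibroblasts had 16 with DESeq2, 4 in the Efhd1-led cluster alone, 228 without the filter, 2 with the gate and 16 to 113 with a pair left out. Endothelial cells had 16 with DESeq2, 240 without the filter and 1 to 1075 with a pair left out. For arthritis, also 0, fibroblasts had 4 with DESeq2 and 3 without the filter, sublining-like fibroblasts 6 with DESeq2, 125 without the filter and 2 with the gate, and endothelial cells 1 with DESeq2 and 81 without the filter.

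Pi16 in the Efhd1-led cluster, without a mitochondrial limit, was 1085 CPM in healthy knockout against 1399 in healthy wild type, 4701 in arthritic wild type, and 1192 in anti-Notch3 against 2963 in isotype control. With the per-cell gate it was 863 CPM in healthy knockout, 5920.2 in arthritic wild type, and 731 in anti-Notch3 against 2281 in isotype control. At resolution 0.5 it was 1033 CPM in healthy knockout against 1081 in healthy wild type, and 805 in anti-Notch3 against 2972 in isotype control. At a fixed mix, resolution 0.5 gave 0.12 for Pi16 and 0.34 for Thy1 in the healthy pair and −1.15 for Pi16 in the antibody pair. The targeted library's weights gave −0.17 for Cd34 and −0.31 for Pi16 in the healthy pair, −0.14 for Thy1 in the arthritic genotype pair, and 0.16 for Cd34, −0.26 for Thy1 and −1.67 for Pi16 in the antibody pair.

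The share of fibroblasts with Thy1 and Cd34 scaled with depth. Asking for at least 2 UMIs of each, it was 2.28% in healthy knockout against 1.72% in healthy wild type, 3.46% in arthritic knockout against 1.64% in arthritic wild type, and 3.86% in anti-Notch3 against 1.59% in isotype control. Thinned to 4000 UMIs, it was 19.8% in healthy knockout against 22.4% in healthy wild type, 27.3% in arthritic knockout against 13.9% in arthritic wild type, and 25.9% in anti-Notch3 against 12.8% in isotype control. Without thinning, it was 23.2% in healthy knockout against 35.7% in healthy wild type, 29.9% in arthritic knockout against 16.7% in arthritic wild type, and 32.2% in anti-Notch3 against 21.1% in isotype control. The order of the healthy pair thus changed with depth, and that of both arthritic pairs did not.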
